A study of Homo sapiens with 6 samples.

Results

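The genes described are those of 9 proteins that modify or chaperone collagen: the lysyl oxidases LOX, LOXL1, LOXL2, LOXL3 and LOXL4, the lysyl hydroxylases PLOD1, PLOD2 and PLOD3, and the collagen chaperone SERPINH1. They were chosen by family, found by symbol and Entrez gene ID, and were all listed among the 27257 genes with a value in at least 1 library. RNA-seq had been used to ask which transcripts change when LMO2, a LIM-domain adaptor that bridges transcription factors, is overexpressed in U87MG. U87MG is an established human glioblastoma line, grown here in DMEM with serum and antibiotics. The control group (U87MG-control, n = 3 libraries) was infected with a control lentivirus and the other group (U87MG-LMO2, n = 3 libraries) with an LMO2 lentivirus, both for 24 h. The study's methods place LMO2 behind a CMV promoter, do not describe the insert of this control virus, and mention no selection of single clones. The labels number the libraries but do not say that they came from separate cultures, so the p-values measure only the spread between these libraries, which may be technical.

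Collagen chains are modified and cross-linked in a fixed order of places. In the endoplasmic reticulum, lysyl hydroxylases convert lysines to hydroxylysines and SERPINH1 (HSP47) holds the folded triple helix. After secretion, the copper-dependent lysyl oxidases oxidise lysine and hydroxylysine side chains of collagen and elastin to aldehydes, which then form the covalent cross-links that stiffen the matrix. Several of these genes are known to respond to low oxygen, LOX and PLOD2 among them, and SERPINH1 is a classical heat shock gene.

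Depth did not overlap between the groups, at 11428432 to 13537284 expected counts in U87MG-control and 14630627 to 17892955 in U87MG-LMO2. LMO2 (4005) itself had 7, 11 and 5 counts in the controls and 5459, 4503 and 14570 in U87MG-LMO2, so the labels held, and the library with the most LMO2 was replicate 3. The log2 fold change of LMO2 was 9.70 with an SE of 0.60 (edgeR adjusted p = 4.13e-04). Of 16092 genes tested, 760 (4.72%) were called higher in U87MG-LMO2 and 443 (2.75%) lower at an adjusted p under 0.05, and the median log2 fold change of all of them was -0.01. A pair of libraries stood apart. U87MG-control replicate 1 had the highest value of 11 of 12 hypoxia genes, and without U87MG-LMO2 replicate 3 the calls rose to 1307 higher and 1102 lower. Values without them are therefore given beside several of the results that they change, but not beside all. Of the markers of the cell type, VIM and CD44 carried the glial sum (12198.3 to 12393.6 CPM, read counts normalised to library size, in U87MG-control and 12277.6 to 14413.2 CPM in U87MG-LMO2). The glial genes S100B, AQP4 and SOX2 were at or near 0. Mean levels in U87MG-control and U87MG-LMO2 were 35.5 and 25.6 CPM for SLC1A3, 44.5 and 43.0 CPM for NES, and 0.992 and 0.58 CPM for OLIG2. None of the 5 tested glial genes was called. Summed immune markers reached at most 1.04, endothelial markers 6.35 and epithelial markers 3.2 CPM in any library. As these are bulk samples, fewer cells that express a gene and less RNA per cell cannot be told apart.

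At the level of length-scaled abundance (FPKM, fragments scaled to transcript length and to the mapped total of the library), LOXL1 was the highest of the 9 genes in both groups, at 196.3 ± 4.53 FPKM (SD, n = 3) in U87MG-control. LOXL2 followed at 122.0 ± 6.32 FPKM. The ranges of SERPINH1 (104.7 ± 5.55 FPKM) and PLOD1 (90.4 ± 8.95 FPKM) overlapped, and PLOD3 lay below them at 56.5 ± 7.28 FPKM. LOX (27.1 ± 4.11 FPKM) and PLOD2 (23.3 ± 6.31 FPKM) also overlapped in the controls, with LOXL3 at 16.8 ± 2.12 FPKM and LOXL4 at 0.07 ± 0.03 FPKM. In U87MG-LMO2 the order of the 2 most abundant genes was kept, at 332.2 ± 73.9 FPKM for LOXL1 and 204.0 ± 3.59 FPKM for LOXL2. SERPINH1 (83.8 ± 10.9 FPKM), PLOD1 (73.1 ± 9.23 FPKM) and PLOD3 (69.4 ± 7.36 FPKM) had overlapping ranges, although SERPINH1 was the highest of these 3 genes in every U87MG-LMO2 library. LOXL3 (38.3 ± 6.53 FPKM) stood level with LOX (37.0 ± 7.93 FPKM), and both lay above PLOD2 (20.4 ± 5.39 FPKM) in every U87MG-LMO2 library.

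**Figure D1:**
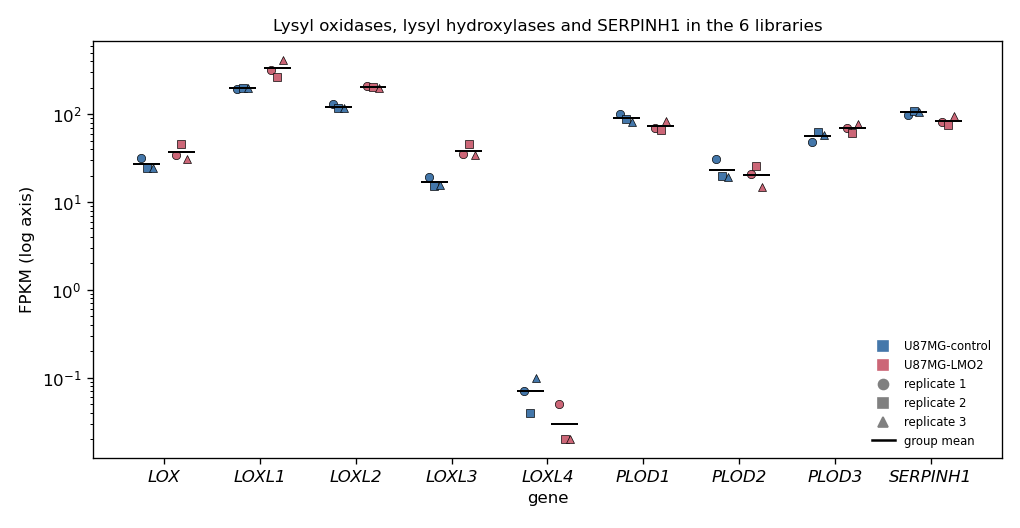
FPKM (log axis) of the 9 genes in each library, with control libraries in blue, U87MG-LMO2 libraries in red, marker shapes for the replicate number and bars for group means. LOXL1, LOXL2 and LOXL3 lie higher in all 3 U87MG-LMO2 libraries, whereas PLOD2 overlaps between the groups and LOXL4 lies near 0.

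Of the 8 genes that passed the filter on low counts, 3 were called higher in U87MG-LMO2, all of them lysyl oxidases, and none lower. The shares over all 16092 tested genes were 4.72% called higher and 2.75% called lower. The median log2 fold change was 0.80 over the 4 tested lysyl oxidases and -0.20 over the 3 lysyl hydroxylases. The groups did not overlap in normalised read count for 4 of the 8 genes, all with U87MG-LMO2 higher. Among all tested genes 17.5% had groups that did not overlap with U87MG-LMO2 higher, and 16.6% with U87MG-LMO2 lower.

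LOXL3 (84695), a lysyl oxidase with scavenger receptor cysteine-rich domains, had the highest fold change of the family. Its normalised read counts were 60.3, 49.7 and 50.9 CPM in U87MG-control and 105.3, 139.1 and 112.6 CPM in U87MG-LMO2. The lowest U87MG-LMO2 library thus lay well above the highest control. The mean rose from 53.7 ± 5.78 to 119.0 ± 17.7 CPM (SD, n = 3), 2.22-fold in the edgeR fit (log2 1.15, SE 0.13, adjusted p = 0.00430), and the call held in 14 of 14 alternatives, including every left-out library. The largest edgeR adjusted p among these was 0.0333, without U87MG-control replicate 3. LOXL3 lies at chr2:74532414-74555690 on the minus strand (GRCh38, GENCODE v29), where exons share 625 bases with HTRA2 and 216 bases with DOK1 on the opposite strand. The counting is not stated to use strand, so such reads could be assigned to either gene. HTRA2 ranged from 45.98 to 48.36 CPM in U87MG-control and from 50.02 to 56.15 CPM in U87MG-LMO2, and DOK1 from 42.77 to 46.52 CPM and from 54.72 to 66.67 CPM. Both therefore also lay higher in U87MG-LMO2, and their part in the LOXL3 value was not tested.

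LOXL2 (4017), which also carries scavenger receptor domains and is known to cross-link basement membrane collagen IV, had the smallest SE of the log2 fold change among the 8 tested members. It was at 493.2, 452.2 and 449.4 CPM in U87MG-control and at 787.3, 778.9 and 835.5 CPM in U87MG-LMO2. Within each group the libraries were close together, and the gap between the groups was many times their spread. The mean rose from 464.9 ± 24.5 to 800.5 ± 30.5 CPM (SD, n = 3), a 1.72-fold change (log2 0.78, SE 0.09, edgeR adjusted p = 0.00448) that was called in 14 of 14 alternatives. Without U87MG-control replicate 3 the edgeR adjusted p was 0.0462, the largest of the alternatives and close to the threshold. LOXL2 lies on chromosome 8 (23297189 to 23425328, minus strand) and shares 120 exonic bases with ENTPD4 on the same strand. ENTPD4 lay at 94.5 to 118.16 CPM in U87MG-control and lower, at 75.5 to 89.64 CPM, in U87MG-LMO2.

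LOXL1 (4016), the lysyl oxidase best known for elastic fibres, differed far more among the U87MG-LMO2 libraries. It measured 449.7, 468.8 and 465.7 CPM in U87MG-control against 738.2, 630.1 and 1056.6 CPM in U87MG-LMO2, where replicate 3 was the highest. The groups did not overlap. The mean rose from 461.4 ± 10.2 to 808.3 ± 221.7 CPM (SD, n = 3), 1.75-fold (log2 0.81, SE 0.17, edgeR adjusted p = 0.0317). The call was lost when any 1 control library was left out (adjusted p = 0.128, 0.113 and 0.120 without replicates 1, 2 and 3) and without U87MG-LMO2 replicate 1 (adjusted p = 0.0812). It held without replicate 3, the highest library, at a smaller log2 fold change of 0.57 (adjusted p = 0.00297). Its locus (chr15:73925989-73952137, plus strand) carries the antisense gene LOXL1-AS1, which shares 335 exonic bases. LOXL1-AS1 was at 53.35 to 60.32 CPM in U87MG-control and 79.96 to 106.89 CPM in U87MG-LMO2, with its highest value also in replicate 3. Without strand, reads of the pair cannot be told apart over those bases.

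LOX (4015), the founding member of the family, was not called. Its values of 165.2, 128.0 and 128.1 CPM in U87MG-control and 178.0, 239.5 and 173.1 CPM in U87MG-LMO2 did not overlap. In FPKM, which lack the TMM scaling of library size used for CPM, they did. There control replicate 1 (31.83 FPKM) exceeded U87MG-LMO2 replicate 3 (30.59 FPKM). The means were 140.4 ± 21.4 and 196.9 ± 37.0 CPM (SD, n = 3), and the log2 fold change of 0.49 (SE 0.16) had an edgeR adjusted p of 0.0964. LOX was called higher in only 3 of 14 alternatives. These were DESeq2 (adjusted p = 0.0446), correction for GC content (log2 0.67, adjusted p = 0.0188) and leaving out U87MG-LMO2 replicate 3 (log2 0.57, adjusted p = 0.0290). In the rest LOX was not called, with an edgeR adjusted p of up to 0.278 (without U87MG-control replicate 3). With 41.0% GC the LOX transcripts are AT-rich beside those of LOXL1, LOXL2 and LOXL3 (58.2%, 60.4% and 57.7%). LOX shares 138 exonic bases with SRFBP1 on the opposite strand. SRFBP1 lay at 7.34 to 7.45 CPM in U87MG-control and lower, at 3.37 to 5.67 CPM, in U87MG-LMO2, and its part in the LOX value was not tested. LOXL4 (84171) had 3, 2 and 5 counts in U87MG-control and 3, 1 and 1 in U87MG-LMO2, which is too few for a fold.

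The promoters of LOX and LOXL3 are shown because one gene has a known oxygen response and the other had the largest rise. The sequences are RefSeq's for GRCh38.p14, from the stretch before the first annotated exon base, 5′ to 3′ on the minus strand (chr5:122078361-122078509 for LOX, chr2:74553962-74554192 for LOXL3).
LOX: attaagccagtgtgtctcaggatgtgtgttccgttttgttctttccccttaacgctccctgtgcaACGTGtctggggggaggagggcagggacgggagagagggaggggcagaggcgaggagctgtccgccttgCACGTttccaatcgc
LOXL3: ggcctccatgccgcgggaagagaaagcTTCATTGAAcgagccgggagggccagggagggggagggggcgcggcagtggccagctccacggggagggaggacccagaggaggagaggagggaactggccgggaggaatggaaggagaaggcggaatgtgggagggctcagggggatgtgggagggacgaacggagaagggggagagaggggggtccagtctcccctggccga
Capitals mark matches on either strand to 5 motifs: the hypoxia response core ACGTG, the heat shock unit GAANNTTC, the STAT element TTCNNNGAA, the E-box CANNTG and the GATA motif GATAA, the last pair being motifs bound by known DNA-binding partners of LMO2. An ACGTG within CACGTG would count for both the hypoxia core and the E-box. In LOX both capital stretches are ACGTG, and the full 250 bases before its start held 4. Annotated exons of LOX cover 101 of those 250 bases, including the matches that are not shown. Of 35116 RefSeq promoters, searched over the same 250 bases, 18.5% held ACGTG at least once. In LOXL3 the capitals mark 1 STAT element, present in 6.6% of promoters. Neither an E-box nor a GATA motif was in the 250 bases before this start (61.8% and 20.4% of promoters hold one). A second LOXL3 start had 3 E-boxes. There was 1 at LOXL1, at LOXL4, at the second SERPINH1 start and in the overlapping windows of the other LOX starts. Annotated exons of the same gene cover all 250 bases at LOXL1 and at the second SERPINH1 start. They cover 137 of 250 bases at the second LOXL3 start and 119 of 250 at each other LOX start. The 113 bases before the first exon base at the second LOXL3 start held no E-box. The GATA motif was found once, at LOXL4, within the 56 of 250 bases there that annotated exons of the same gene cover. Of the 9 genes 8 had a promoter entry, and LOXL2 had none. A match describes letters and says nothing about binding.

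LOXL3 also differed in the length of its transcripts, a measure looked at after its values were seen. The deposited length of a gene is the mean over its transcripts weighted by their estimated abundance, so it changes when the mixture of transcripts changes. For LOXL3 it was 3138.95, 3235.04 and 3247.06 bases in U87MG-control and 3031.99, 3024.74 and 3043.08 bases in U87MG-LMO2. All U87MG-LMO2 libraries were shorter, by 173.7 bases or 5.42% of the control mean (exact permutation test, 2-sided, p = 0.1, the smallest that 3 against 3 libraries allow). Of 11208 genes whose length varied, 836 (7.46%) were shorter in every U87MG-LMO2 library, and 289 of those by at least as many percent as LOXL3. GENCODE v29 lists LOXL3-201 with 3502 bases and LOXL3-202 with 2398 bases, and the deposited lengths lay between these. LOXL1 was shorter by 5.0 bases without overlap, and the lengths of the other genes overlapped or did not vary.

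**Figure D2:**
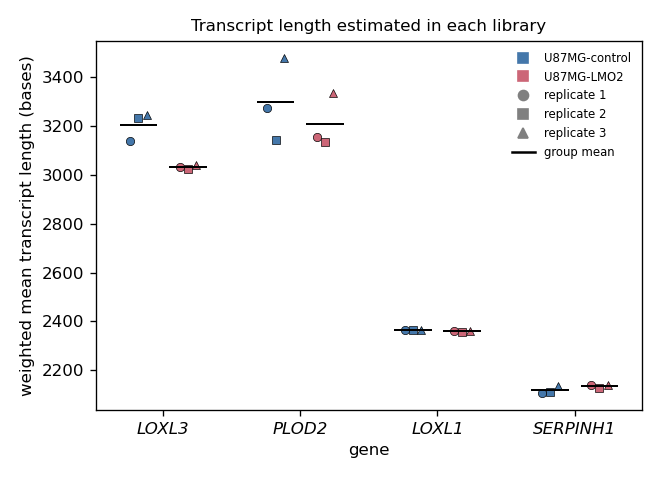
Abundance-weighted mean transcript length in bases (axis not starting at 0) of LOXL3, PLOD2, LOXL1 and SERPINH1 in each library; bars are group means. The 3 U87MG-LMO2 values of LOXL3 lie below its 3 control values, while those of PLOD2 and SERPINH1 overlap.

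None of the 3 lysyl hydroxylases was called by edgeR or by DESeq2, and only PLOD3 had an unadjusted p under 0.05, with a positive fold change. PLOD1 (5351), which hydroxylates helical lysines, had 304.2, 269.9 and 250.1 CPM in U87MG-control and 211.2, 201.6 and 277.0 CPM in U87MG-LMO2. Only U87MG-LMO2 replicate 3 fell within the control range. The log2 fold change was -0.26 (SE 0.14, edgeR adjusted p = 0.290). Of 14 alternatives only 1 called PLOD1, the fit without that library, where it was lower (log2 -0.41, adjusted p = 0.0207). PLOD3 (8985), which also transfers sugars to hydroxylysine, had 145.1, 187.3 and 173.7 CPM against 207.9, 185.7 and 249.1 CPM. U87MG-LMO2 replicate 2 lay just under the highest control, and the log2 fold change of 0.34 (SE 0.14) had an edgeR adjusted p of 0.165. PLOD3 shares 429 exonic bases with ZNHIT1 on the opposite strand. ZNHIT1 lay at 35.93 to 45.29 CPM in U87MG-control and 35.2 to 37.36 CPM in U87MG-LMO2, and its part in the PLOD3 value was not tested.

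PLOD2 (5352), the hydroxylase of the telopeptide lysines that lead to stable pyridinoline cross-links, was highest in control replicate 1. It was at 100.1, 62.6 and 67.3 CPM in U87MG-control and at 65.6, 80.2 and 53.6 CPM in U87MG-LMO2. The groups overlapped widely, and the library with the highest value was the control that also led the hypoxia genes. The log2 fold change of -0.20 (SE 0.20, edgeR adjusted p = 0.562) turned to 0.03 without that library (adjusted p = 0.941) and to 0.06 after correction for GC content (adjusted p = 0.856). At 35.9% GC, PLOD2 has the lowest GC content of the 9 genes. Its promoter, RefSeq's 250 bases before the start (chr3:146161185-146161434, minus strand, 5′ to 3′), is shown for its known oxygen response.
PLOD2: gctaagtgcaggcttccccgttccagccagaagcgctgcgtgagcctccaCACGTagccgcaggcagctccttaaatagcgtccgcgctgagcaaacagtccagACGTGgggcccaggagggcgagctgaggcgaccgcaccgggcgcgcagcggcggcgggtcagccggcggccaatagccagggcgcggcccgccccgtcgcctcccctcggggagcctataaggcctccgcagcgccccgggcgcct
Here the capitals mark 2 ACGTG cores, 1 on each strand, and none of the other motifs was found.

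SERPINH1 (871), the collagen-specific chaperone, had 206.6, 229.7 and 223.4 CPM in U87MG-control and 170.5, 158.8 and 222.2 CPM in U87MG-LMO2. The first and second U87MG-LMO2 libraries lay below every control, and replicate 3 lay within their range. In FPKM the groups did not overlap, at 98.82, 109.86 and 105.29 against 80.87, 74.73 and 95.94. The FPKM lack the TMM scaling of library size used for CPM. Its factor was 0.929 for U87MG-LMO2 replicate 3 and 1.008 to 1.021 for the other libraries. The log2 fold change of -0.26 (SE 0.14) was not called (edgeR adjusted p = 0.269). SERPINH1 was called lower in only 2 of 14 alternatives. These were leaving out U87MG-LMO2 replicate 3 (log2 -0.42, adjusted p = 0.0117) and correction for GC content (log2 -0.49, adjusted p = 0.0197). In the rest SERPINH1 was not called, with an edgeR adjusted p of up to 0.511 (without U87MG-LMO2 replicate 1). A heat shock unit, held by 5.8% of RefSeq promoters, began 71 bases before the first RefSeq start and is shown in capitals within 30 bases (chr11:75562171-75562200, plus strand, GRCh38.p14, 5′ to 3′).
SERPINH1: ccaactttccaGAAGTTTCtcgggacgggc
GENCODE v29 places transcripts further upstream, from position 75562056, so the unit lies within an annotated exon there and not in the stretch before the first exon base.
Among 12 heat shock genes, 6 were called lower and none higher (2.75% and 4.72% of all tested genes). Their median log2 fold change was -0.85. HSPA1B, an inducible HSP70, had -1.69 (adjusted p = 0.00413), and HSPA1A, a near-identical copy whose reads may have been split between the pair, had -2.77 (adjusted p = 0.0196, lost in 3 of 13 alternatives). The number of heat shock genes called was 2 without U87MG-control replicate 2 or 3, 3 without U87MG-LMO2 replicate 1, and 10 and 12 without U87MG-LMO2 replicates 2 and 3. The part of the heat shock response in the SERPINH1 values was not tested.

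Over the 12 hypoxia genes tested, 1 was called higher and none lower (4.72% and 2.75% of all tested genes). Their median log2 fold change was -0.34. The gene called was ADM, which encodes the vasodilator peptide adrenomedullin, at 0.69 (adjusted p = 0.0422), and it lost its call in 6 of 14 alternatives. Without U87MG-LMO2 replicate 3, 1 hypoxia gene was called higher and 4 lower (median -0.53). Without U87MG-control replicate 1, none was called in either direction and the median was -0.13, and none was called without either other control or without U87MG-LMO2 replicate 1. The summed level was 4589.8 CPM in control replicate 1, against 3073.0 and 3187.3 CPM in the other controls and 2356.6, 2671.5 and 3147.7 CPM in U87MG-LMO2. P4HA1, a catalytic subunit of prolyl 4-hydroxylase that is itself known as a hypoxia gene, had the same high library, with 54.7, 30.5 and 32.2 CPM in U87MG-control and 17.6 to 21.6 CPM in U87MG-LMO2. Unlike PLOD2, it was lower in every U87MG-LMO2 library also when control replicate 1 is set aside, and it was called lower (log2 -0.99, SE 0.22, edgeR adjusted p = 0.0359). Without control replicate 1 the log2 fold change was -0.67 and the call was lost (adjusted p = 0.0693), as it was in 7 of 14 alternatives. The part of oxygen supply in these values was not tested.

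**Figure D3:**
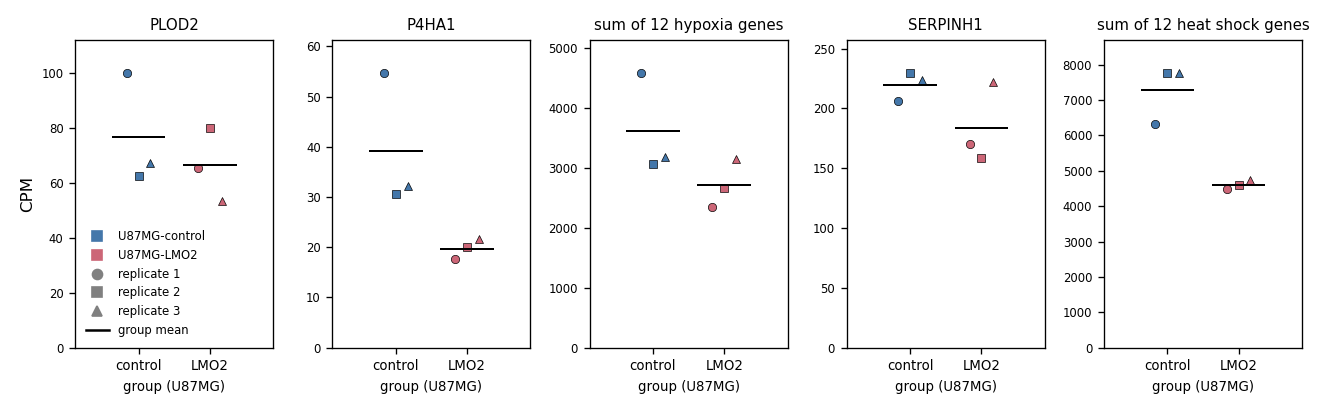
Normalised read counts (CPM, axes from 0) of PLOD2 and P4HA1 beside the sum of 12 hypoxia genes, and of SERPINH1 beside the sum of 12 heat shock genes, in each library, with bars for group means. Control replicate 1 is the highest library in the first 3 panels, and the heat shock sum is lower in all 3 U87MG-LMO2 libraries (4474.0 to 4735.7 against 6314.6 to 7763.5 CPM).

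Summed over the 5 lysyl oxidases, transcript abundance was 371.6, 358.9 and 356.3 FPKM in U87MG-control and 594.2, 562.0 and 678.2 FPKM in U87MG-LMO2. The groups lay far apart (362.3 ± 8.21 and 611.5 ± 60.0 FPKM, SD, n = 3), a ratio of 1.69 with an exact permutation p = 0.1, the smallest this design allows. The 3 lysyl hydroxylases summed to 179.1, 171.7 and 159.7 FPKM and to 160.9, 153.1 and 174.7 FPKM, which overlapped (ratio 0.957, exact permutation p = 0.5). Within the oxidases LOXL1 made up 54.2 ± 2.40% of the control sum and 53.9 ± 6.67% of the U87MG-LMO2 sum, and LOXL2 33.7 ± 0.973% and 33.6 ± 3.47% (exact permutation p = 1.0 for each, in a design where no share could fall below 0.1). LOX accounted for 7.46 ± 0.956% and 6.16 ± 1.85%, and LOXL3 for 4.63 ± 0.478% and 6.35 ± 1.62%, with overlapping groups in both cases. In CPM the LOXL3 groups did not overlap, with a share 1.48 percentage points higher in U87MG-LMO2 (exact permutation p = 0.1). Within the hydroxylases PLOD1 held 55.8, 51.8 and 51.5% in U87MG-control and 43.5, 43.0 and 47.8% in U87MG-LMO2, and PLOD3 27.1, 36.6 and 36.4% and 43.5, 40.3 and 43.8%. Neither pair of groups overlapped, but an exact permutation p = 0.1 became 0.267 after adjustment over the 8 shares. The share of PLOD2 was 13.6 ± 3.01% and 12.7 ± 4.11%.

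The substrates of these enzymes were examined as a list of 18 genes for fibrillar and other collagens, elastin and proteins that hold them in the matrix. Of the 13 tested, 5 were called higher and 1 lower (8 and 1 without U87MG-LMO2 replicate 3, 3 and 0 without U87MG-control replicate 1). The median log2 fold change was 0.99 (0.58 and 0.74 without these libraries, in that order). Of all tested genes, 4.72% were called higher and 2.75% lower. COL1A1 and COL1A2, the chains of type I collagen, rose by log2 1.02 (SE 0.10, adjusted p = 0.00238) and 0.69 (SE 0.12, adjusted p = 0.0144). COL5A1, a chain of the collagen that starts type I fibrils, rose by log2 1.08 (SE 0.13, adjusted p = 0.00489). ELN, which encodes elastin, had 0.521, 1.61 and 1.21 CPM in U87MG-control and 79.6, 63.7 and 26.4 CPM in U87MG-LMO2 (log2 5.62, SE 0.50, adjusted p = 0.00225). Its lowest U87MG-LMO2 value was in replicate 3, the library with the highest LOXL1. POSTN, the matricellular protein periostin, rose from 0.464 ± 0.188 to 1.46 ± 0.451 CPM (log2 1.62, adjusted p = 0.0456), whereas FBLN5, which tethers LOXL1 and elastin, fell from 3.16 ± 0.789 to 1.34 ± 0.0552 CPM (log2 -1.22, adjusted p = 0.0287). COL1A2 lost its call without any 1 control library or without U87MG-LMO2 replicate 1 (adjusted p = 0.0559 to 0.0853), and the calls of POSTN and FBLN5, both at low counts, were lost in 8 of 12 and 6 of 14 alternatives.

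Other genes of collagen maturation mostly passed no threshold. Of 28 listed, 24 were tested, 3 were called higher, 1 lower and 20 neither, with a median log2 fold change of 0.07. Calls over all tested genes were 4.72% higher and 2.75% lower. BMP1, the procollagen C-proteinase that also activates LOX by cleaving its propeptide, rose from 68.8 ± 3.36 to 117.1 ± 18.8 CPM (log2 0.77, SE 0.13, edgeR adjusted p = 0.0136). FKBP10, a prolyl isomerase that acts with PLOD2 in the endoplasmic reticulum, rose from 260.6 ± 1.61 to 392.0 ± 63.8 CPM (log2 0.59, SE 0.12, adjusted p = 0.0291). P3H4, a partner of PLOD1 in helical lysine hydroxylation, rose from 58.7 ± 2.37 to 76.0 ± 2.52 CPM (log2 0.37, SE 0.09, adjusted p = 0.0437). The gene called lower was P4HA1. The other prolyl 4-hydroxylase subunits were not called, at log2 0.44 for P4HA2 (SE 0.21, adjusted p = 0.220) and 0.07 for P4HB (SE 0.10, adjusted p = 0.700). P3H4 lost its call in 10, FKBP10 in 5 and BMP1 in 3 of 14 alternatives; among these, each lost it when any 1 control library was left out.

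**Figure D4:**
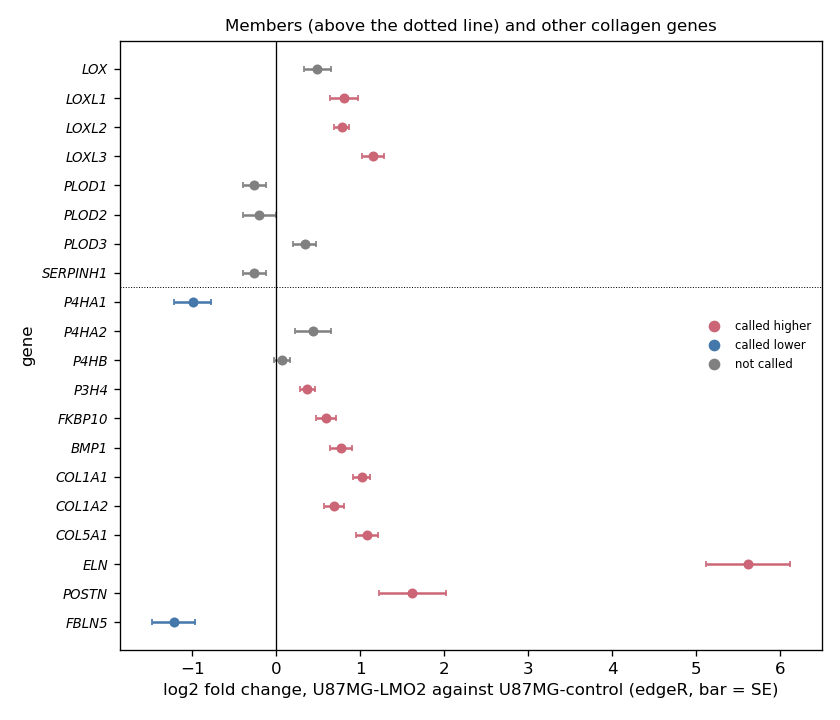
Log2 fold change of U87MG-LMO2 against U87MG-control in edgeR, with bars of 1 SE, for the 8 tested enzymes and the chaperone (above the dotted line) and for other collagen maturation genes and substrates. Red marks genes called higher, blue lower and grey neither; the called oxidases stand at 0.78 to 1.15, and COL1A1, COL1A2 and COL5A1 at 0.69 to 1.08.

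Because type I collagen transcripts rose, the enzymes were also expressed per 100 FPKM of COL1A1 and COL1A2 together, a ratio chosen after the values were seen. The lysyl oxidases stood at 122.0, 115.3 and 109.7 in U87MG-control and at 108.5, 108.1 and 120.7 in U87MG-LMO2. These groups overlapped, with means of 115.6 ± 6.16 and 112.4 ± 7.14 (exact permutation p = 0.5). The lysyl hydroxylases stood at 58.8, 55.2 and 49.2 in U87MG-control and at 29.4, 29.4 and 31.1 in U87MG-LMO2, a ratio of 0.551. SERPINH1 stood at 32.4, 35.3 and 32.4 against 14.8, 14.4 and 17.1, a ratio of 0.462. For both, every U87MG-LMO2 library lay below every control (exact permutation p = 0.1, the smallest possible, and 0.15 after adjustment over the 3 ratios). The ratios share a denominator and so are not independent of one another. The denominator itself differed, with COL1A1 at 120.76 to 137.03 FPKM in U87MG-control and 250.23 to 263.22 FPKM in U87MG-LMO2, while the summed hydroxylases overlapped.

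**Figure D5:**
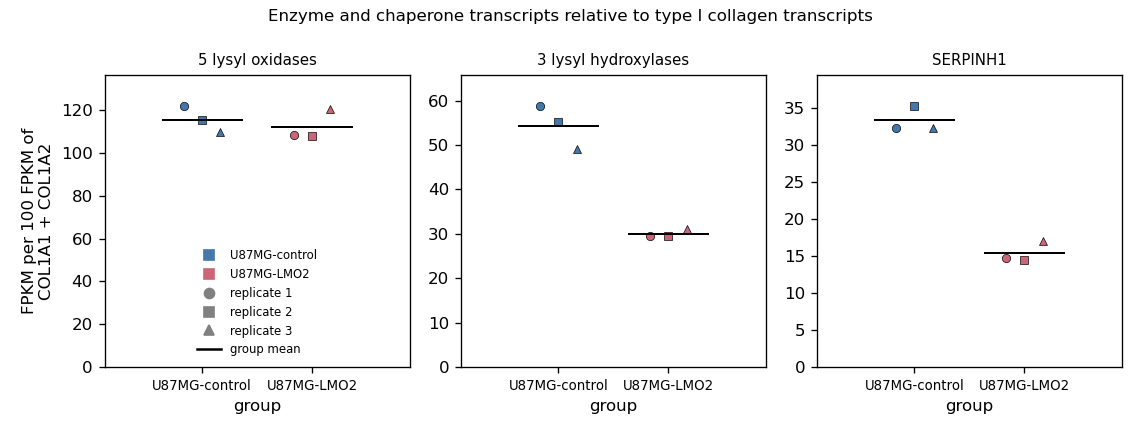
Summed FPKM of the lysyl oxidases, of the lysyl hydroxylases and of SERPINH1 per 100 FPKM of COL1A1 plus COL1A2 in each library (axes from 0), with bars for group means. The oxidases overlap between the groups (115.6 and 112.4), whereas the hydroxylases (0.551 of the control mean) and SERPINH1 (0.462 of it) do not.

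For each called oxidase, the most similar profiles were sought among 9657 genes with a mean of at least 10 CPM, by Pearson correlation of log2 CPM over the 6 libraries. These values describe a shared pattern over libraries that fall in 2 groups, and the best of many genes is high by selection. LOXL1 was closest to MAPK7 (r = 0.996) and GSTM4 (r = 0.996), genes of a mitogen-activated kinase and of a glutathione transferase. LOXL2 was closest to NDUFA7 (r = 0.999), a subunit of respiratory complex I, and PCBP3 (r = 0.999), a poly(C)-binding protein. LOXL3 was closest to DISP1 (r = 0.998), which releases hedgehog ligands, and SPARC (r = 0.996), a collagen-binding matricellular protein. The log2 fold changes of these genes ranged from 0.24 for DISP1 to 2.37 for PCBP3.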

How the data were processed

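RNA-seq libraries of U87MG cells (3 U87MG-control, 3 U87MG-LMO2) were read from the tables that the authors deposited, 1 per library. The expected counts deposited by the authors are estimated reads per gene, not normalized and not always whole. The FPKM values deposited by the authors are scaled to gene length and mapped reads. The deposited length column, one of the other units, is a gene length weighted by transcript abundance. The submitters' processing notes name Bowtie2, BWA and GRCh38.p12, and versions are not given in the sources used here. The authors' table of the comparison holds mean FPKM, a log2 ratio and a probability. Its means were used to find damaged lines, its ratio and probability not at all. The table of U87MG-LMO2 replicate 3 had 3 unreadable lines, and 132 genes that did not match the authors' mean (0.35% of control counts, none of them a gene described here) were left out. GFAP was among them, and MIA2, COL4A1, EGLN3 and KRT5 were not analysed here.

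Total expected counts were 11428432, 13537284 and 13086989 (U87MG-control 1 to 3) and 16142024, 14630627 and 17892955 (U87MG-LMO2 1 to 3). No fold is given where both groups are near 3 counts, the limit that a count of 0 allows, which covers counting error only. Expected counts were rounded and tested with edgeR 4.0.16 in R 4.3.3 (filterByExpr, TMM, quasi-likelihood F test, 2-sided, Benjamini-Hochberg over 16092 genes, called at adjusted p under 0.05). CPM were scaled by TMM library sizes. Single values per library were compared by exact permutation in scipy 1.17.1. Scripts were tested on simulated data. Alternatives were upper-quartile normalization, DESeq2 1.42.0, no filter, at least 10 counts in every library, limma 3.58.1 on log2(FPKM + 1) and log2(FPKM + 0.1), a replicate block, GC correction (lowess span 0.3, GC content known for 89.8% of tested genes), and leaving out each library.

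The members and lists were chosen with earlier results of these data known. Genes named were the 9 members, LMO2, called genes of the maturation and substrate lists with P4HA1, P4HA2, P4HB, COL1A1, COL1A2, BMP1 and ELN, the 2 most changed called hypoxia and heat shock genes in each direction, and the 2 most alike genes of each called member. Genes overlapping a member were added from the annotation. Coordinates came from GENCODE v29 (GRCh38.p12), promoters from RefSeq (GRCh38.p14, 12 entries for 8 members).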

Additional observations from a re-analysis of the deposited data

How the results depend on the processing

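LOXL2 and LOXL3 were called under all 14 alternatives, at log2 0.60 to 0.83 and 1.02 to 1.24. The number of members called was 5 after GC correction and 2 to 6 when 1 library was left out. DESeq2 called 691 genes lower, 2 hypoxia and 10 heat shock genes. Without a filter on low counts, 10 substrate and 2 hypoxia genes were called. GC correction left 2 collagen maturation and 0 hypoxia genes. Leaving out 1 library gave 102 to 1307 genes higher, 42 to 1102 lower, 0 to 6 collagen maturation, 3 to 9 substrate, 0 to 5 hypoxia and 2 to 12 heat shock genes. The low counts of genes called came without any 1 control library or without U87MG-LMO2 replicate 1 (102 to 177 higher, 42 to 56 lower), the high ones without U87MG-LMO2 replicate 3. Without U87MG-LMO2 replicate 2, 579 genes were called higher and 304 lower. Each of these fits has 1 library fewer than the main fit, and the cause of the differences between them was not tested.

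Same-numbered libraries did not deviate together (correlations -0.117, -0.003 and -0.041), so the numbers were not taken as pairs. With a replicate block, 387 genes were called higher and 189 lower, with 1 collagen maturation and 0 hypoxia genes, and the 3 members called without the block were called with it.

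The direction of PLOD2 reversed after GC correction (0.055) and ranged from -0.362 to 0.032 when 1 library was left out. The difference in the share of LOXL1 was 0.295 percentage points with CPM in place of FPKM and -3.808 to 2.837 with 1 library left out, that of LOXL2 0.346 and -1.354 to 1.899, and that of PLOD2 -2.870 to 1.230 with 1 library left out. The cause of these changes was not tested. Depth limits LOXL4, which had at most 5 counts in any library.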
